A study of Mus musculus and Homo sapiens with 10 samples.

Results

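Break ends were followed along human chromosomes 19 and 18, a pair of chromosomes of similar length and opposite gene content, in TK6 cells. The members were all bins of 100 kb on both chromosomes (GRCh37), except a stretch of 46 bins on chromosome 19 that ends just before 24500001. They numbered 1327 of 30954 bins over all chromosomes: 781 on chromosome 18 and 546 on chromosome 19. A bin was called covered where at least 1 break end lay in it in any of the 4 libraries. On chromosome 18, 750 bins were covered and 740 passed the filter on low counts (filterByExpr of edgeR), and on chromosome 19 these were 515 and 512. The bins without a break end were 31 on each chromosome. Of these, 30 on each formed a single run at the centromere, 15500001 to 18500000 on chromosome 18 and 24700001 to 27700000 on chromosome 19. This run was used to divide the short arm (p) from the long arm (q).

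Chromosome 19 is the most gene-dense human chromosome, rich in G and C and in housekeeping genes, and in lymphoblastoid nuclei it tends to lie in the interior and to replicate early. Chromosome 18 is gene-poor, tends to lie near the nuclear edge and replicates later over much of its length. Etoposide traps topoisomerase II, the enzyme that passes one DNA duplex through a transient break in another, in the cleaved state, and topoisomerase II cleavage is known to be frequent near active promoters and at the anchors of chromatin loops.

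TK6 is an established human lymphoblastoid cell line. One group received the vehicle DMSO and the other etoposide, with 2 libraries in each. Neither the dose nor the length of treatment is given in the sources used, nor whether replicates came from separate cultures, so p-values measure only the spread between these libraries. In-suspension BLISS tags break ends with an adapter in cells or nuclei after blunting, and the sequenced ends give positions. The libraries held between 585021 (DMSO replicate 2) and 11467827 (etoposide replicate 1) break ends, all 4 on GRCh37. Densities are given as EPM, break ends of a bin per 1000000 of its library. Break maps carry no expression values, so the cell type was not checked against markers.

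Chromosome 19 carried a higher density of break ends than chromosome 18 in each of the 4 libraries. The mean per covered bin of chromosome 19 was 65.3 and 84.3 EPM in DMSO replicates 1 and 2 and 73.7 and 99.0 EPM after etoposide. Chromosome 18 had 29.5 and 27.2 EPM in DMSO and 28.6 and 24.5 EPM after etoposide. The ratio of chromosome 19 to chromosome 18 was thus 2.21 and 3.10 in DMSO (2.65 ± 0.628, SD, n = 2) and 2.58 and 4.04 after etoposide (3.31 ± 1.03, n = 2). All 4 ratios lay above 1, with a mean log2 ratio of 1.54 and an exact two-sided sign-flip permutation test of p = 0.13 at 2 digits, the smallest that 4 libraries can give. Densities are not per copy: no copy number of these chromosomes was measured, and its part was not tested. Neither was that of base composition or mapping, since no human genome sequence was used.

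The ratio did not separate the treatments. DMSO replicate 2 (3.10) lay above etoposide replicate 1 (2.58), and replicate 2 lay above replicate 1 in both groups. That gap between replicates was 0.49 on the log2 scale in DMSO and 0.65 after etoposide. Within replicate numbers 1 and 2 the log2 ratio was 0.22 and 0.38 higher after etoposide, respectively. The labels do not say that a number marks a pair. The mean log2 ratio was 0.30 higher after etoposide, with p = 0.667 in the exact two-sided permutation test over the libraries, where 2 against 2 cannot go below 0.33. Without etoposide replicate 2 that difference was -0.020, and without DMSO replicate 1 it was 0.060. It was 0.63 without etoposide replicate 1 and 0.55 without DMSO replicate 2. Each such omission also leaves the replicate numbers uneven between the treatments. With the median over bins in place of the mean, the ratios were 2.52 and 4.09 in DMSO and 3.35 and 6.39 after etoposide, a difference in log2 of 0.53 (exact permutation p = 0.667).

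Among the 23 chromosomes 1 to 22 and X, chromosome 19 ranked 2 by mean density in every library, behind chromosome 22. By the median over bins it ranked 1 in every library. Chromosome 18 ranked 20 by mean density in 3 libraries and 21 in etoposide replicate 2, and between 17 and 19 by the median. The chromosomes nearest to 19 were 22 (66.2 and 85.0 EPM in DMSO, 76.4 and 100.2 after etoposide), 20 (63.3 and 71.9, then 68.0 and 76.2) and 17 (58.8 and 65.9, then 60.7 and 73.1). Chromosome 4 lay below chromosome 18, with 24.5 and 21.0 EPM in DMSO and 22.9 and 19.3 after etoposide. Chromosome 13, another gene-poor chromosome, lay above it with 39.2 and 34.8, then 37.3 and 31.5. On the dense chromosomes 17, 19, 20 and 22, the libraries had the order DMSO 1, etoposide 1, DMSO 2, etoposide 2 from low to high, and on chromosomes 4, 13 and 18 the reverse.

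**Figure D1:**
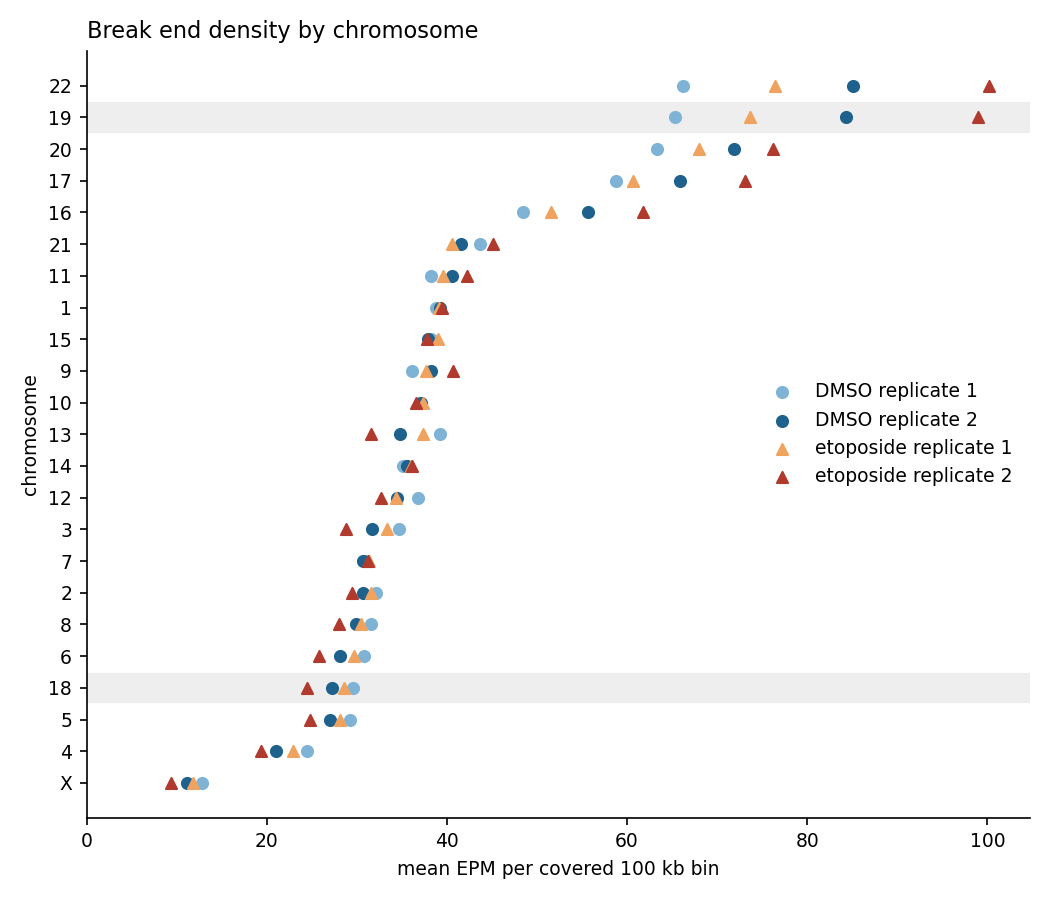
Mean break end density of each chromosome (vertical axis, ordered by the mean of the 4 libraries) in EPM per covered 100 kb bin (horizontal axis), with circles for the DMSO and triangles for the etoposide libraries. Grey bands mark chromosome 19, between 65.3 and 99.0 EPM, and chromosome 18, between 24.5 and 29.5 EPM.

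The difference between the chromosomes was one of most bins and not of a few. In DMSO the median bin of chromosome 19 had 62.9 and 76.9 EPM, and that of chromosome 18 had 24.96 and 18.8 EPM. After etoposide the medians were 72.6 and 87.6 against 21.6 and 13.7 EPM. Of the 750 covered bins of chromosome 18, 43 and 35 lay above the chromosome 19 median in DMSO, and 34 and 32 after etoposide. Of the 515 bins of chromosome 19, 53 and 43 lay below the chromosome 18 median in DMSO, and 47 and 26 after etoposide.

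Bins also differed widely within each chromosome. Between the 5% and 95% points, chromosome 19 ranged from 19.4 to 125 EPM in DMSO replicate 1 and from 13.9 to 247 EPM in etoposide replicate 2. Chromosome 18 ranged from 10.2 to 68.9 EPM and from 5.03 to 81.5 EPM in the same libraries. The ratio of these points was 6.44 and 13.9 in DMSO and 8.63 and 17.8 after etoposide on chromosome 19. On chromosome 18 it was 6.78 and 14.7, then 6.19 and 16.2. The range was wider in replicate 2 of each treatment on both chromosomes. In DMSO the lower points carry counting error, since the mean count per bin of chromosome 18 was 32.0 and 15.9 break ends there, against 328 and 219 after etoposide.

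**Figure D2:**
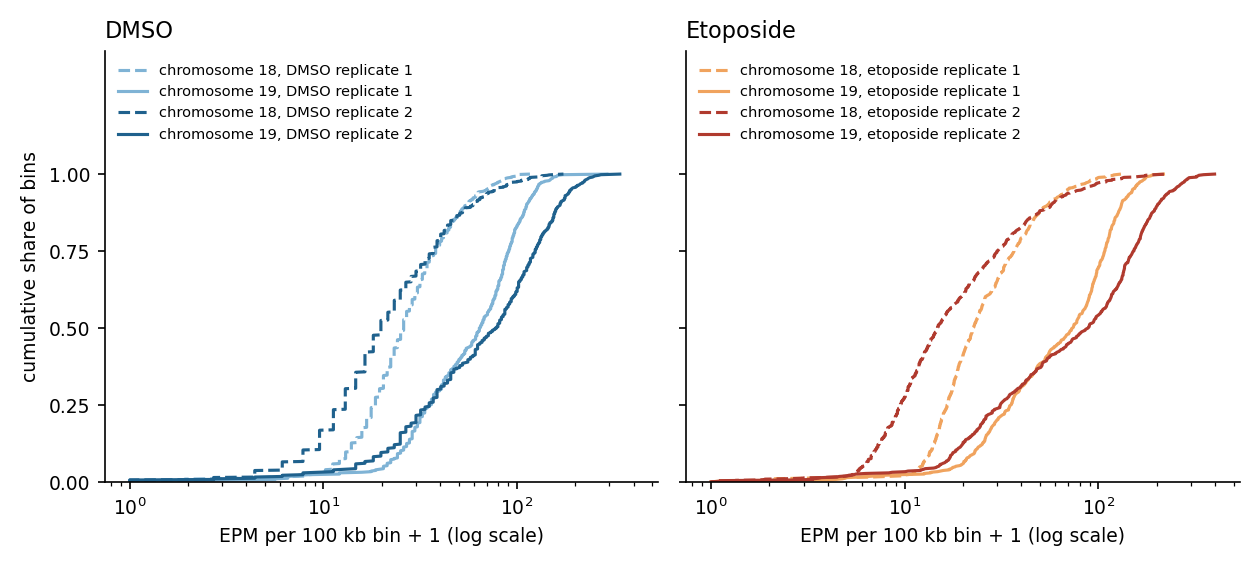
Cumulative share of covered bins (vertical axis) against EPM per 100 kb bin plus 1 (horizontal axis, log scale) in the DMSO (left) and etoposide (right) libraries, with dashed lines for chromosome 18 and solid lines for chromosome 19. The solid lines lie to the right, with medians of 62.9 to 87.6 EPM against 13.7 to 24.96 EPM for the dashed lines.

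On chromosome 19 the short arm was denser than the long arm in every library. Its 200 covered bins had 77.8 and 109 EPM in DMSO and 93.4 and 135 EPM after etoposide, and the 315 of the long arm had 57.3 and 68.9, then 61.2 and 76.1 EPM. The ratio of short to long arm was 1.36 and 1.58 in DMSO and 1.53 and 1.78 after etoposide. On chromosome 18 the arms were close, with a ratio of 1.06 and 1.11 in DMSO and 1.09 and 1.11 after etoposide. The short arm had 31.0 and 29.5 EPM in DMSO and 30.5 and 26.5 EPM after etoposide there, and the long arm had 29.2 and 26.6, then 28.1 and 24.0 EPM. These arm ratios are given without a test.

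In steps of 5 Mb from each end, the densest stretch of chromosome 19 was the end of its short arm, 1 to 5000000, with 98.2 and 154 EPM per bin in DMSO and 127 and 204 EPM after etoposide. The density fell to 86.7 ± 17.9 EPM (SD, n = 2, etoposide) in the next 5 Mb and was 118 ± 27.1 EPM from 15000001 to the excluded stretch. On the long arm the stretches between 34100001 and the end held 66.6 to 84.9 EPM after etoposide, with the highest mean from 44100001 to 49100000 (67.8 and 80.5 in DMSO, 74.9 and 95.02 after etoposide). The first 1.4 Mb of the long arm, 27700001 to 29100000, was the sparsest apart from the 2 bins beside the centromeric run on the short arm. It had 25.8 and 21.98 EPM in DMSO and 24.3 and 17.8 EPM after etoposide, which is near the level of chromosome 18. Of the 12 stretches of chromosome 19, 10 exceeded the mean of chromosome 18 after etoposide, which was 26.5 EPM.

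Chromosome 18 alternated between sparse and denser stretches. The end of the long arm, from 73000001, was the densest with 53.8 and 62.1 EPM in DMSO and 58.3 and 72.8 EPM after etoposide. This was the only one of its 16 stretches above the lowest complete stretch of chromosome 19 (29100001 to 34100000, 53.6 ± 3.14 EPM after etoposide). A second rise lay in the interior, 43000001 to 48000000, with 47.3 and 51.1 EPM in DMSO and 48.6 and 47.0 EPM after etoposide. The sparsest complete stretch was 63000001 to 68000000, with 15.8 and 11.9 EPM in DMSO and 14.8 and 8.50 EPM after etoposide. It lay 5 Mb from the dense end, next to 68000001 to 73000000 at 21.0 ± 2.92 EPM after etoposide. The end of the short arm was not dense, with 26.6 and 23.1 EPM in DMSO and 25.5 and 19.5 EPM after etoposide.

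**Figure D3:**
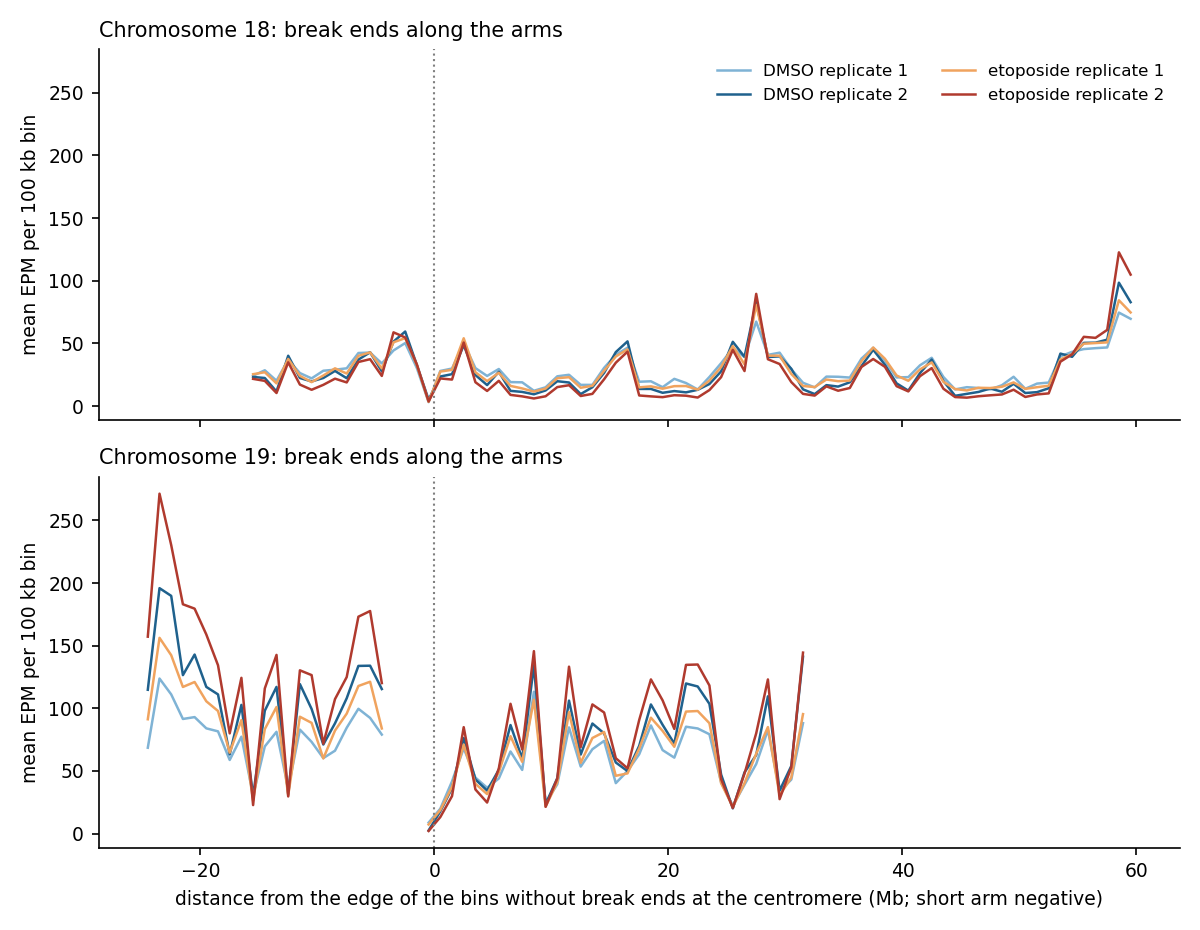
Break end density along chromosomes 18 (top) and 19 (bottom) as the mean EPM of the 100 kb bins in each 1 Mb (vertical axis) against distance in Mb from the run of bins without break ends at the centromere (horizontal axis, short arm negative, the run itself left out), 1 line per library. The 4 lines rise and fall at the same places, with the highest values at the end of the short arm of chromosome 19 and, on chromosome 18, at the end of the long arm; the break in the lines of chromosome 19 is the excluded stretch.

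Bins within 5 Mb of the chromosome ends, both ends pooled, were denser on average than the other bins, and on each chromosome the excess lay at 1 end. On chromosome 18 (101 against 649 bins) the ratio was 1.45 and 1.73 in DMSO and 1.59 and 2.20 after etoposide, and on chromosome 19 (100 against 415 bins) it was 1.23 and 1.45, then 1.33 and 1.56. The treatments overlapped on both. The log2 ratio was higher after etoposide by 0.24 on chromosome 18 and by 0.11 on chromosome 19, with p = 0.667 in the exact two-sided permutation test for each. Without etoposide replicate 2 these were 0.0052 and -0.0020, and without DMSO replicate 1 they were 0.11 and -0.0069. On chromosome 18 the dense end was that of the long arm, and the first 5 Mb of the short arm were below the chromosome's mean. On chromosome 19 it was that of the short arm. The end of its long arm had 56.3 and 72.5 EPM in DMSO and 59.3 and 77.3 EPM after etoposide, below the chromosome's mean in each library.

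The densest bins are named by a rule on their levels and are a description. On chromosome 19 the densest, in DMSO and after etoposide, was 1200001 to 1300000, with 171 and 338 EPM in DMSO (185 and 198 break ends) and 216 and 397 EPM after etoposide (2474 and 3552 break ends). The next 4 after etoposide started at 3600001 (270 ± 111 EPM, n = 2), 2200001 (258 ± 101), 1000001 (253 ± 95.3) and 5000001 (252 ± 104). So all 5 lay within 5.1 Mb of the end of the short arm. In DMSO the list also held 59000001 (162 and 270 EPM), the last complete bin of the long arm, and 56100001 (159 and 251 EPM). The bin from 36000001 stood at 290 and 140 EPM in DMSO and at 114 and 155 EPM after etoposide. There a single position, 36066691, held 137 break ends in DMSO replicate 1 and 6 in replicate 2, and 50 and 17 after etoposide.

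On chromosome 18 the densest bin after etoposide was 77200001 to 77300000, with 86.0 and 173 EPM in DMSO and 130 and 226 EPM after etoposide. The bin from 77300001 was the densest in DMSO (116 and 156 EPM) and had 119 and 204 EPM after etoposide. The others of the 5 after etoposide started at 77100001 (151 ± 46.2 EPM), 46300001 (149 ± 35.3) and 77500001 (141 ± 46.5). The DMSO list added 77400001 and 77600001. Both lists thus held 1 bin of the interior rise and otherwise bins of the last 1 Mb of the long arm. The densest bin of chromosome 18 ranked 560 among the covered bins of all chromosomes after etoposide, and that of chromosome 19 ranked 34.

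The sparsest bins that passed the filter were 14300001 (1.88 ± 0.191 EPM after etoposide), 14700001 (2.88 ± 0.119) and 27000001 (6.19 ± 3.70) on chromosome 18. The first 2 lie close to the centromeric run. On chromosome 19 they were 7300001 (2.87 ± 0.744), 43600001 (3.16 ± 0.832) and 43500001 (3.30 ± 0.232). The bin from 7300001 had 0 break ends in DMSO replicate 2, which allows up to 3 counts or 5.13 EPM. All 3 levels of chromosome 19 lay between the lowest and the highest of the 3 of chromosome 18. The part of mapping in these low values was not tested.

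Break ends were more concentrated on chromosome 18 than on chromosome 19. With all libraries thinned to 585021 break ends, the densest 10% of bins (75 bins) held 24.1% and 31.4% of the break ends of chromosome 18 in DMSO and 27.0% and 38.0% after etoposide. On chromosome 19 the densest 10% (52 bins) held 20.8% and 24.1% in DMSO and 21.3% and 26.1% after etoposide. The Wilson 95% intervals of these shares reached at most 0.921 percentage points to either side and cover counting error only. Chromosome 18 has fewer break ends per bin, which raises such a share through counting error; at full depth after etoposide, with 219 or more break ends per bin on average, the shares were 26.6% and 37.7% against 21.1% and 25.7%. The mean share was higher after etoposide by 4.78 percentage points on chromosome 18 and by 1.26 on chromosome 19. Both differences had an exact two-sided permutation p = 0.667, and replicate 2 was the higher in each treatment. Without etoposide replicate 2 both were negative (-0.696 and -1.11), and without DMSO replicate 1 they were 1.10 and -0.384.

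The libraries ranked the bins alike. Over the 515 bins of chromosome 19, Pearson's r of log2(EPM + 1) was 0.94 for the DMSO libraries, 0.98 for the etoposide libraries and 0.95 to 0.97 between treatments. Over the 750 bins of chromosome 18 these were 0.84, 0.96 and 0.89 to 0.93. A bin has the same sequence in every library, and neighbouring bins resemble each other. Bins are thus not independent units, and these values are descriptive. At equal depth they were 0.91 to 0.94 on chromosome 19 and 0.80 to 0.84 on chromosome 18. The etoposide libraries had 47 of the densest 52 bins of chromosome 19 in common (90.4%) and 69 of 75 of chromosome 18 (92.0%), and the DMSO libraries 41 (78.8%) and 54 (72.0%). At equal depth the shares were 71.2% and 77.3% after etoposide and 69.2% and 69.3% in DMSO.

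The likeness of neighbouring bins is given as a description, without a test. Bins next to each other (100 kb) had an r of 0.59 to 0.73 on its short arm and 0.61 to 0.71 on its long arm over the 4 libraries, and 0.69 to 0.79 and 0.72 to 0.85 on the arms of chromosome 18. At 1000 kb r was 0.032 to 0.10 and 0.011 to 0.069 on chromosome 19. On the long arm of chromosome 18 it was still 0.42 to 0.51, and on its short arm 0.065 to 0.25. The ranges of the 2 short arms overlapped at 100 kb and at 1000 kb, and in etoposide replicate 2 the short arm of chromosome 19 had the higher r at both. At 5000 kb r lay between -0.11 and -0.083 on the long arm of chromosome 18, -0.28 and -0.13 on its short arm, -0.10 and -0.063 on the short arm of chromosome 19, and 0.066 and 0.10 on the long arm.

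The next comparison asked how etoposide changed the share of break ends on each chromosome. In break ends as deposited, chromosome 19 had 36366 and 25412 in DMSO and 435196 and 455830 after etoposide, 14.4 times as many by the group means. Chromosome 18 had 23970 and 11948 in DMSO and 245702 and 164293 after etoposide, 11.4 times as many, and all chromosomes together 12.2 times. These are library yields, which follow sequencing depth as well as breaks. Relative to the other chromosomes, the log2 fold change was 0.22 for chromosome 19 (SE 0.22) and -0.08 for chromosome 18 (SE 0.10), both with adjusted p = 0.643 in edgeR's quasi-likelihood test over 23 chromosomes with Benjamini-Hochberg adjustment. None of the 23 chromosomes passed an adjusted p of 0.05 (0%) in this fit without a replicate block, and neither did any before adjustment. With the replicate number as a block chromosome 19 passed, though the labels do not say that a number marks a pair. DESeq2 gave 0.21 and -0.10, with an adjusted p of 0.741 for both.

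Both values lay close to 0 when etoposide replicate 2 was left out. They were then -0.025 on chromosome 19 and 0.0079 on chromosome 18. Without DMSO replicate 1 the value of chromosome 19 was 0.04 and that of chromosome 18 -0.04. Without etoposide replicate 1 they were 0.45 and -0.16, and without DMSO replicate 2 they were 0.45 and -0.12. Cells per library are not stated, so yields cannot be turned into breaks per cell.

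Most bins of chromosome 19 lay on the higher side after etoposide, and those of chromosome 18 were split evenly. Of 512 tested bins of chromosome 19, 431 had a positive log2 fold change, with a median of 0.40 (quartiles 0.16 and 0.59), against a median of 0.02 over all 27972 bins. Of 740 on chromosome 18, 383 were positive, with a median of 0.01 (quartiles -0.23 and 0.23). Chromosome 22 had a median of 0.40 and chromosome 17 of 0.27, chromosome 20 of 0.13, and chromosomes 13 and 4 of -0.04 and -0.08. Scaling by library size moved the median of all bins to -0.17, and those of chromosomes 19 and 18 to 0.15 and -0.19. With it 67.6% of bins of chromosome 19 were positive in place of 84.2%, and 27.2% of chromosome 18 in place of 51.8%. Relative to all bins, chromosome 19 was at 0.38 with TMM and 0.33 with library size, and chromosome 18 at -0.01 with each. The median of chromosome 18 also lay below 0 after thinning (-0.03), without a filter (-0.05) and in bins of 1 Mb (-0.02), so its sign is not settled.

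No bin of either chromosome passed in edgeR's quasi-likelihood test (smallest adjusted p = 0.999 on each), where 0% of all bins were called higher and 0.0143% lower. Before adjustment, 10 of 512 bins of chromosome 19 and 8 of 740 of chromosome 18 had p under 0.05, where 576 of all 27972 bins did. DESeq2 called 0 on both, with 1 and 0 at an unadjusted p under 0.05. The lack of calls does not show that the bins were unchanged. The higher median of chromosome 19 was present without each library but etoposide replicate 2, where it was -0.03 with 222 of 504 bins positive. Without DMSO replicate 1 it was 0.20, and the median of all bins 0.12. Without etoposide replicate 1 it was 0.76.

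**Figure D4:**
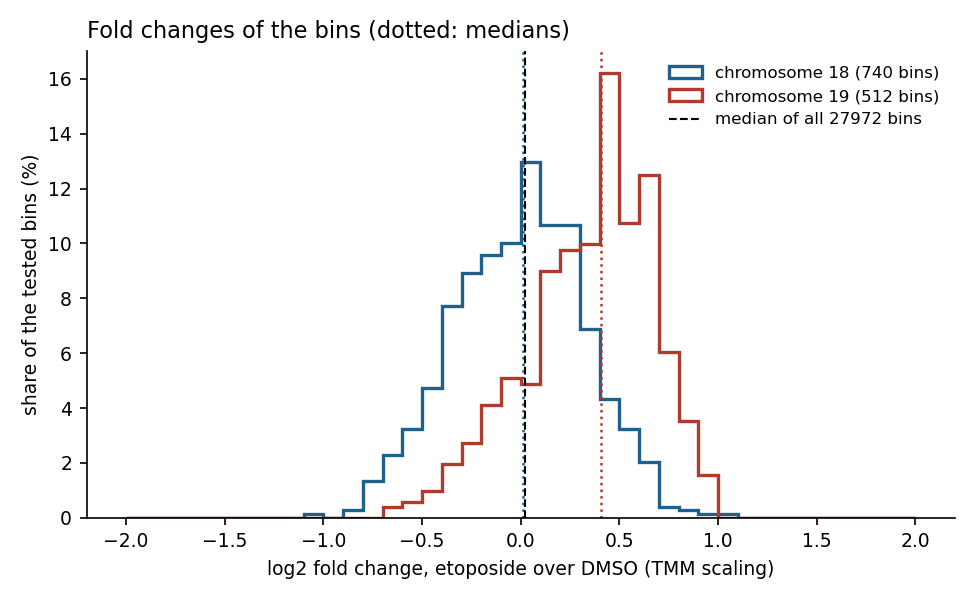
Share of tested bins in percent (vertical axis) by log2 fold change of etoposide over DMSO with TMM scaling (horizontal axis, steps of 0.1) for the 740 bins of chromosome 18 and the 512 of chromosome 19, with dotted lines at their medians and a dashed line at that of all 27972 bins. Chromosome 18 centres on the median of all bins (0.01 against 0.02), and chromosome 19 lies to the right with a median of 0.40; without etoposide replicate 2 the latter was -0.03.

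The short arm of chromosome 19 had a median of 0.54 (179 of 198 bins positive) and the long arm of 0.30 (252 of 314). On chromosome 18 these were 0.05 (85 of 145) and 0.0003 (298 of 595). Bins within 5 Mb of an end had a median of 0.52 on chromosome 19 and 0.23 on chromosome 18 (74 of 101 positive), and the interior bins 0.36 and -0.01. The arms and ends with higher medians were those with more break ends.

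With all 4 libraries, the densest class of bins had the highest median fold change on both chromosomes and on the others pooled. All tested bins were divided into 5 classes of equal size by their mean EPM over the 4 libraries, a grouping chosen after values were seen. Class 5, the densest (49.4 EPM and above), held 321 of the 512 bins of chromosome 19 (62.7%) and 92 of the 740 of chromosome 18 (12.4%). Its median log2 fold change was 0.50 on chromosome 19 with 314 positive, 0.33 on chromosome 18 with 89 positive, and 0.39 on the other chromosomes. In class 4 (27.2 to 49.4 EPM) the medians were 0.20, 0.09 and 0.07, and in class 3 (17.9 to 27.2 EPM) they were 0.03, -0.10 and -0.10. Class 2 held 202 bins of chromosome 18, at -0.20, and 7 of chromosome 19, and the others were at -0.16. Class 1 held 124 at -0.02 and 15 at -0.10, and the others were at -0.09. The medians of chromosome 18 and of the others thus rose from class 2 to class 5, with class 1 above class 2.

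Bins of class 5 thus had positive medians on both chromosomes, and in classes 3 to 5 the median of chromosome 19 was the highest of the 3 sets. The density of a bin and its fold change come from the same libraries, and the difference between the chromosomes within a class was not tested. Without etoposide replicate 2 the medians of class 5 were -0.03 on both chromosomes and -0.01 on the others. Class 1 then had the highest median on chromosome 18 (0.19) and on the others (0.09). Without DMSO replicate 1 the medians of class 5 were 0.22 on chromosome 19, 0.18 on chromosome 18 and 0.19 on the others. Those of class 1 were higher on chromosome 18 (0.27) and on the others (0.30), so class 5 was not the highest there when either of these libraries was left out. In class 3 without DMSO replicate 1, and in class 5 without etoposide replicate 2, chromosome 19 had the lowest median of the 3 sets. Without etoposide replicate 1 the medians of class 5 were 0.92, 0.65 and 0.72, and without DMSO replicate 2 they were 0.83, 0.49 and 0.62.

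Counts per 1000000 of the TMM-scaled library (CPM) did not overlap between treatments in a minority of bins. On chromosome 19, 75 bins were higher after etoposide in both libraries (14.6%; 12.0% of all bins) and 23 lower (4.49%; 14.2% of all bins). On chromosome 18 the counts were 68 higher (9.19%) and 111 lower (15.0%). The share of higher bins was near the background on both chromosomes. That of lower bins was near it on chromosome 18 and below it on chromosome 19, a difference that was not tested. The share of lower bins was also below the background on chromosomes 22 (2.37%) and 17 (7.54%), and near it on chromosome 20 (13.8%).

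All single bins named here had adjusted p = 0.999 in edgeR's test. On chromosome 18 the bin from 75300001, in the dense end of the long arm, had 26.6 and 27.0 CPM in DMSO and 39.0 and 55.4 CPM after etoposide. Its log2 fold change was 0.81 (SE 0.31, adjusted p = 0.999, edgeR), 1.07 without etoposide replicate 1 and 0.23 with all libraries thinned to equal depth. The bins from 65400001 (1.08) and 63400001 (0.90) rested on 6 and 3, and 9 and 3, break ends in DMSO. Lower ones on chromosome 18 were 38700001 (-1.03), 69100001 (-0.87) and 41400001 (-0.84), each with 7 break ends in DMSO replicate 2.

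On chromosome 19 the largest differences among bins without overlap were 0.93 at 4900001, 0.93 at 3200001 and 0.91 at 18900001. The bin from 3200001 had 68.6 and 49.0 CPM in DMSO and 81.1 and 145 CPM after etoposide. That from 4900001 barely separated, with 64.5 and 99.594 CPM in DMSO and 99.636 and 210.3 CPM after etoposide. Among lower bins, 9000001 had 48.4 and 30.4 CPM in DMSO and 25.3 and 27.2 CPM after etoposide, or -0.66 on the log2 scale (SE 0.26). The bins from 48400001 and 31500001 each had -0.50.

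At the scale of single bases, repeated use of a position was more frequent on chromosome 19. At equal depth, 2.03% and 1.81% of the break ends of chromosome 19 in DMSO, and 1.71% and 3.70% after etoposide, shared their position with another. On chromosome 18 the shares were 0.746% and 0.845%, then 0.693% and 1.96%. Wilson 95% half-widths were at most 0.263 percentage points, cover counting error only and treat break ends as independent. Ends at a shared position come in groups, so these widths understate that error. In DMSO replicate 1, position 36066691 of chromosome 19 alone held 79 break ends at equal depth. Chromosome 19 has more break ends per base, so more of them meet at a position by that alone, and the part of density was not tested. Of 1 kb windows in covered bins, 26.9% and 29.0% held a break end on chromosome 19 in DMSO and 28.7% and 29.8% after etoposide. On chromosome 18 these were 14.6% and 12.5%, then 13.9% and 10.4%.

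At full depth, 582 positions of chromosome 19 had at least 5 break ends in both etoposide libraries, 42.1% of those in replicate 1 (1382) and 17.8% of those in replicate 2 (3274). On chromosome 18 there were 68, 31.8% of 214 and 14.0% of 484. In DMSO, 8 and 2 positions of chromosome 19 and 1 and 1 of chromosome 18 reached 5, in libraries with far fewer break ends. The position with most in the etoposide libraries together was 41115342 on chromosome 19, with 33 and 66 break ends and 0 in both DMSO libraries. On chromosome 18 it was 43754064, with 20 and 33 against 0 and 2. That position lies in the interior rise of chromosome 18, and position 1438400 (20 and 37, with 0 in DMSO) in the dense end of the short arm of chromosome 19. Other recurrent positions lay in sparse stretches. On chromosome 18, 66382515 (12 and 20) and 67136740 (13 and 10) lay in its sparsest complete stretch, 63000001 to 68000000. On chromosome 19, 30097094 (31 and 30) lay in its lowest complete stretch, 29100001 to 34100000. Whether a count is of unique molecules or of reads is not stated, so copies of a single break end made in amplification may be among these.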

How the data were processed

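Each library's deposited file gives break end counts by position, unpooled, not normalized and without strand; the authors aligned with BWA to GRCh37, per the submitters' processing notes, and no source used here gives the version, the filters or how duplicates were handled. Lines that repeat a position (26, 2, 7001 and 10322) were added up. Counts were summed over 100 kb bins and chromosomes and compared by the quasi-likelihood F test of edgeR 4.0.16 in R 4.3.3, with TMM scaling, filterByExpr for bins and no replicate block (SE from the fold change and F). Single values per library were compared by exact permutation. The tests were tested on simulated counts, where the bin test missed most changes of 1.5-fold, 2-fold and 3-fold. The 6 mouse libraries were not used here. Members, tests, rules and lists were chosen with earlier results of these data known.

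Named bins were the 5 densest per treatment, the 3 sparsest after etoposide among filtered bins, bins past the threshold, and up to 3 per direction with the largest fold change without overlap. Density classes and single positions were added after the files were seen. The alternatives left out positions over 100 break ends, counted every position once, dropped the filter, scaled by library size, or used DESeq2 1.42.0, thinning to 585021, bins of 500 kb and 1 Mb, the excluded region added, other distances and shares, the replicate number as a block, and each library left out. Tables and figures were made in Python 3.11.15 (matplotlib 3.10.9, scipy 1.17.1, pandas 2.3.3, numpy 2.4.6).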

Additional observations from a re-analysis of the deposited data

How the results depend on the processing

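The higher density of chromosome 19 kept its direction under every alternative run (mean log2 ratio 1.44 to 1.95, and 1.38 to 1.67 with each library left out in turn). With each library left out in turn, the etoposide differences ranged as follows. The chromosome 19 to 18 log2 ratio differed by -0.020 to 0.63. The log2 fold change was -0.025 to 0.45 for chromosome 19 and -0.16 to 0.0079 for chromosome 18. The share in the densest 10% of bins changed by -1.11 to 3.63 points on chromosome 19 and by -0.696 to 10.3 on chromosome 18. The end to interior log2 ratio changed by -0.0069 to 0.23 on chromosome 19 and by 0.0052 to 0.48 on chromosome 18. These differences changed sign only in such fits among the alternatives run; the cause was not tested. The median log2 fold change of the bins of chromosome 18 (0.01) also fell below 0 with all 4 libraries, after thinning (-0.03), without a filter (-0.05), with library size scaling (-0.19) and in bins of 1 Mb (-0.02). With the excluded stretch added, 1 bin of chromosome 19 was called, a lower bin inside it.

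With the replicate number as a block, chromosome 19 passed in the fit over chromosomes (0.22, edgeR adjusted p = 2.80e-05), chromosome 18 did not (-0.08, adjusted p = 0.449), and the bins called stayed at 0 on both, with 25 over all chromosomes in place of 4. At an unadjusted p under 0.05 there were then 154 bins of chromosome 19 and 68 of chromosome 18, in place of 10 and 8. The share of all bins at that threshold, and how many other chromosomes passed with the block, are not given here. So neither result is shown to be particular to these chromosomes. Within numbers 1 and 2 the chromosome 19 to 18 log2 ratio differed by 0.22 and 0.38 between treatments (mean 0.30, exact sign-flip permutation p = 0.500, the smallest for 2 numbers). Deviations of same-numbered libraries correlated across bins (r = 0.53 over all, 0.66 on chromosome 19 and 0.48 on chromosome 18), but the labels do not say that a number marks a pair, and 2 numbers do not settle it. Depth limits the DMSO side, where bins of chromosome 18 held 15.9 to 32.0 break ends on average.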
